A study of Drosophila melanogaster with 2 samples.

Results

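The Polycomb and trithorax group genes encode the proteins that keep developmental genes stably off or on, and 32 of them, 19 of the Polycomb group and 13 of the trithorax group, were examined for binding of the homeodomain protein Rx in Drosophila melanogaster embryos. They are 32 of 13968 protein-coding genes annotated on the chromosome arms, and are classical group members picked by name. The choice was made with earlier results of these data known, though the rule uses no measured value. All 32 had an annotated gene, and 1 of them, calypso, was matched through a RefSeq synonym to the annotated name caly. Rx, a paired-class homeodomain protein known for its part in head and brain development, was carried as a fusion with eGFP by transgenic flies of the strain Rx-GFP, whose insertion targets the Rx gene. Chromatin from whole embryos aged 0 to 24 h was sonicated to fragments of 200 to 800 bp and precipitated with an antibody against GFP. There were 2 samples in 1 group, biological replicates 1 and 2, both with the fusion protein. No untagged embryos were analysed here, and comparisons were therefore made across the replicates and against all protein-coding genes, the 32 included. Whole embryos mix all cell types, and a peak does not say in which cells the protein was bound.

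Polycomb proteins work in several complexes. Polycomb repressive complex 1 (PRC1) binds methylated histone H3 and compacts chromatin, Polycomb repressive complex 2 (PRC2) methylates histone H3, the Pho repressive complex (PhoRC) brings them to DNA, and the PR-DUB complex removes ubiquitin from histone H2A. Trithorax group proteins oppose this silencing as histone methyltransferases, chromatin remodellers, Mediator subunits and DNA-binding factors. Many of these genes are themselves active in nearly all embryonic cells and are supplied maternally.

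Peaks were taken from the series-wide conservative list of peaks thresholded on the irreproducible discovery rate (IDR), a measure of how consistently a peak ranks between replicates. That list, called the main list here, held 3303 peaks, of which 3250 lay on the arms. A gene was called bound when the summit of a peak lay in it or within 2 kb of it. The signal of a peak is the authors' value for its height, whose scale is not stated, so signals are compared within a list only. The exceptions are the ratios of replicate 1 to replicate 2, which are given beside the same ratio over all peaks. The thresholded lists of replicates 1 and 2 held 2438 and 2209 peaks, and longer ranked lists gave each replicate a value where its thresholded list had none. No file gives read counts, so the depth of either replicate is unknown.

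The 7 member summits that ranked among the 100 highest of the main list are shown first, because they carry most of the signal at these genes. Each line gives 101 bases centred on the summit, on the plus strand of dm6, read from the Release 6 genome. Capitals mark matches on either strand to the 7 motifs searched, which are the homeodomain core TAATTA, the GAGA factor word GAGAG, the Pho core GCCAT, the Dref element TATCGATA, the M1BP word GGTCACAC, the BEAF-32 word CGATA, which lies within the Dref element, and the word ACAGTG, to which no factor is assigned.
ash1, at the start of CG14100, chr3L:19590570-19590670: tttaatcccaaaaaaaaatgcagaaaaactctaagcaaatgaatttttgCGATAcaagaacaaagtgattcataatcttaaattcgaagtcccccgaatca
ph-p intron, chrX:2137302-2137402: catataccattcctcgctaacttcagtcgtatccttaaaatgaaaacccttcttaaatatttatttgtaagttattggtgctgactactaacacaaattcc
Caf1-55, at the start of Art3, chr3R:15229485-15229585: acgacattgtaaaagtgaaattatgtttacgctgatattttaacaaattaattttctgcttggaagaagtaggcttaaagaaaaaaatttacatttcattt
phol, at the start of CG3437, chr3L:9457738-9457838: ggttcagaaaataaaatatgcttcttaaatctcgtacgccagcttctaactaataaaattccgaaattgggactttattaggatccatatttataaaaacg
Trl intron, chr3L:14759452-14759552: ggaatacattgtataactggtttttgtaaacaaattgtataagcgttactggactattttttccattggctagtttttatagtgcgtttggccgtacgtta
osa intron, chr3R:17704361-17704461: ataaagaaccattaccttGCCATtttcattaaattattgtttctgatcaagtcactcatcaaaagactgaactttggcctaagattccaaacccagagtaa
brm, between brm and Arl1, chr3L:15982955-15983055: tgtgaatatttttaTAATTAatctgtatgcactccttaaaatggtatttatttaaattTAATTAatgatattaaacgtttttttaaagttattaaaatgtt
The brm window held 2 copies of TAATTA, the core that homeodomain proteins bind, and the windows of ash1 and osa held 1 marked word each. The other 4 windows held none of the 7 motifs. A match is a run of letters and not a measured site.

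Of the 32 genes, 20 were bound (62.5%), against 3699 of all 13968 protein-coding genes (26.5%). Among the Polycomb group 12 of 19 were bound, and among the trithorax group 8 of 13. In the list of replicate 1 the count was 19, against 21.3% of all genes, and in that of replicate 2 it was 18, against 20.0%. Bound in both replicates' own lists were 17, against 16.7% of all genes. The same 17 were bound in the main list and in the other series-wide list. A further 10 were bound in none of the 4 lists, and the remaining 5 (Sfmbt, Jarid2, trx, Asx and mor) were bound in some lists only. No test was run on these counts.

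The genes are long, and long genes are called bound more often by this rule. Their median length was 7771 bp, against 2164 bp for all protein-coding genes. All genes were divided by length into 4 classes of equal size. In the longest class, of 5000 bp or more, 41.8% were bound, and 15 of the 20 members of that length were bound. In the class from 2165 to 4999 bp, 27.7% of all genes and 4 of 8 members were bound. Between 1179 and 2164 bp the values were 22.9% and 1 of 4, and none of the members was shorter. The median length was 5221 bp in the Polycomb group and 12788 bp in the trithorax group, so a difference between the groups cannot be told apart from length.

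**Figure D1:**
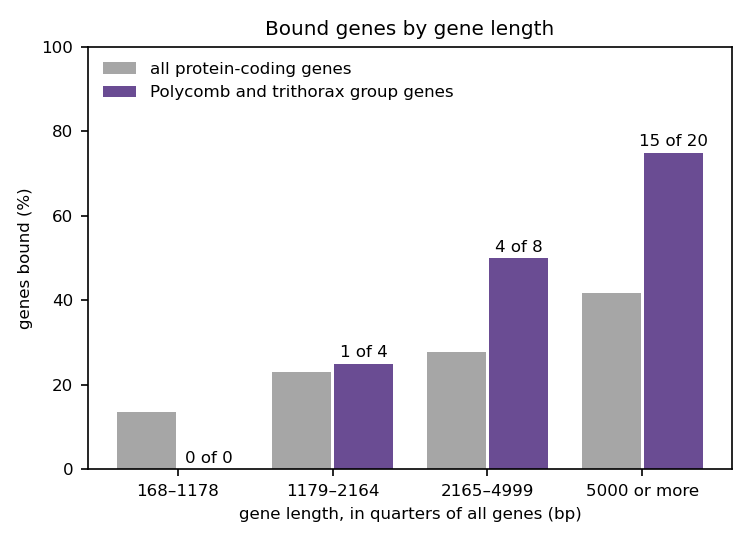
Share of genes bound (percent) in each of 4 classes of gene length (bp), for all protein-coding genes (grey) and for the Polycomb and trithorax group genes (purple, with the number bound of the number in the class). Of 20 members in the longest class 15 were bound, where 41.8% of all genes were.

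Many of the peaks that gave a call lay outside the gene itself, and this was not particular to the members. A summit lay inside 60.0% of bound members, 35.5% of all bound genes and 65.5% of bound genes in the longest class. A summit lay inside the gene in 5 of 19 Polycomb group genes and 7 of 13 trithorax group genes, 12 in all, against 9.40% of all genes. This share too depends on length: in the longest class a summit lay inside 27.3% of all genes and 11 of 20 members, and in the class from 2165 to 4999 bp inside 6.36% of all genes and 1 of 8 members. When each summit was given to the gene with the nearest start alone, at whatever distance, 6 Polycomb and 7 trithorax group genes were bound, 13 in all, against 17.0% of all genes. The 7 genes that then lost their call were Pc, phol, Caf1-55, Pcl, Jarid2, calypso and ash1. The call was kept by 65.0% of bound members, 56.4% of all bound genes and 71.4% of bound genes in the longest class. The 20 bound genes held 31 distinct summits. Of these, 18 lay inside the member, 12 of them in introns, 5 in 5′ UTRs and 1 in a coding exon. A start of another gene was nearest for 11 of the 31. The summits lay within 500 bp of some protein-coding start in 18 of 31 cases, and in 42.7% of all 3250 arm summits. Within 500 bp of the member's own start were 11 summits, at 9 genes. The share of all genes with a summit that near to their own start is not given here, so these counts have no background.

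**Figure D2:**
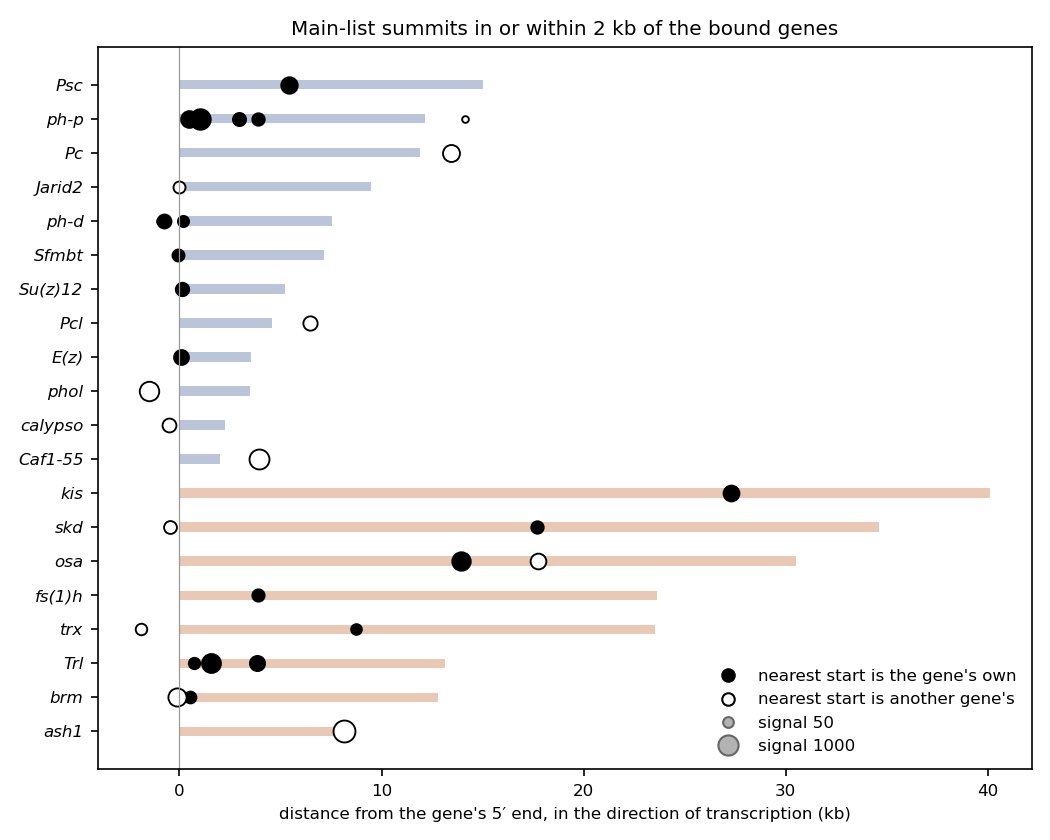
Position of each main-list summit along the bound genes, in kb from the gene's 5′ end in the direction of transcription. Bars are the genes (blue for Polycomb, orange for trithorax group), circle size grows with signal, and open circles are summits nearest to the start of another gene, as at ash1, Caf1-55, phol and Pc.

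Among PRC1 genes the strongest binding was at ph-p, the proximal of a tandem pair that encodes the Polyhomeotic subunits. ph-p (X:2126210-2138371, minus strand) had 5 summits, the most of any member. The highest, at X:2137238-2137475, had a signal of 1116, rank 6 of 3250, and 596.7 and 522.6 in replicates 1 and 2. It lay in an intron, 497 bp from the nearest ph-p start. A second peak at X:2137783-2137946, in the 5′ UTR, had 354.0 in the main list, and 195.2 and 160.4 in the replicates. The ph-p summits at 2135412 and 2134464, both intronic, had 112.3 and 89.84. All 4 of these were in the list of replicate 1, and the last was missing from that of replicate 2. The highest ph-p summit lay 4 bp from the main-list summit in replicate 1 and 0 bp from it in replicate 2. A weaker peak over a ph-p 5′ UTR was in the list of replicate 1 (44.44) and in the other series-wide list (64.24), and not in the main list.

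ph-d, the distal copy (X:2115727-2123286, minus strand), had lower peaks. A narrow peak of 77 bp at X:2123969-2124045, 755 bp upstream of the gene, had 148.2, and 86.67 and 68.35 in replicates 1 and 2. The peak over its 5′ UTR (X:2122990-2123273) had 58.89, with 25.97 in the ranked peaks of replicate 1, below its thresholded list, and 39.73 in replicate 2, whose thresholded list held it. Between the 2 genes a summit at 2124240 was counted for both, 954 bp upstream of ph-d and 1970 bp beyond the end of ph-p. Its signal of 9.311 ranked 3228 of 3250, and no peak overlapped it in the ranked list of replicate 1. The overlapping peak of replicate 2 had its summit 234 bp away. It is the same peak of 68.35 given above for the narrow peak, whose summit lay 35 bp from it. The summit at 2124240 thus had no peak of its own in either replicate. In tandem copies reads can map to more than one place. None of the 31-base words in the 201-base summit windows of any member occurred more than once in the assembly, so these summits are in single-copy sequence at that word length.

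The other PRC1 genes had 1 peak or none. Pc, whose chromodomain protein reads methylated histone H3, was bound through a peak of 377.5 (187.0 and 184.5 in replicates 1 and 2). It lay 1550 bp beyond the 3′ end of Pc and inside CG11309, 70 bp from the start of that gene (3L:21304485-21304632). Psc, a ring finger subunit, had a peak of 324.5 in an intron (2R:12975501-12975651), 5080 bp from its nearest start, with 165.0 and 155.3 in the replicates. Su(z)2, its neighbour and relative, was not bound. A peak of 497.5 with its summit at 2R:12985204 lay between them, outside the 2 kb limit of both and 11297 bp from Su(z)2. The start nearest to it was one of Psc, and it was higher than the peak counted for Psc. By nearest start alone Psc had 2 summits, against 1 by the main rule. Sce, which encodes the ubiquitin ligase of PRC1, and Scm, a sterile alpha motif protein linked to PRC1, were not bound. The summit nearest to Sce lay 3126 bp from the gene.

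PhoRC is the complex with a DNA-binding subunit, and its genes went different ways. pho, on chromosome 4, had no peak in the ranked list of either replicate, and the nearest main-list summit lay 364922 bp away. Its paralog phol was bound through a peak of 813.8, rank 20 (3L:9457687-9457896; 433.4 and 379.8 in replicates 1 and 2). That summit lay 1507 bp upstream of phol and 119 bp from the start of CG3437, a gene that lies wholly between phol and the summit, and fell inside CG3552. Sfmbt, the partner of Pho, had a peak of 79.13 at its own start (2L:13176728-13177011, summit 85 bp from it). It was in the list of replicate 1 (42.95), but in the thresholded lists of neither replicate 2 (33.85 in its ranked list) nor the other series-wide analysis.

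Among PRC2 genes, E(z) and Su(z)12 carried peaks at their own promoters in every list. E(z), the histone methyltransferase, had 199.4 (3L:10637915-10638198; 112.7 and 85.36 in replicates 1 and 2) with the summit 73 bp from its start. Su(z)12, a zinc finger subunit, had 123.4 (3L:19923195-19923478; 65.32 and 57.32), 125 bp from its start. Caf1-55, a histone-binding subunit shared with other chromatin complexes, was called through the third highest of these peaks, with 935.8, rank 12 (3R:15229422-15229635; 517.0 and 425.6). The summit lay 1971 bp beyond the end of Caf1-55 and 127 bp upstream of Art3, which occupies the interval between them. Pcl, a PRC2 partner with a Tudor domain, was called through a peak of 161.7 (2R:18141721-18142004; 69.72 and 88.93), 1873 bp beyond its end and inside pAbp. Jarid2 had 77.74 (3L:9476848-9477131; 34.10 and 44.88), 48 bp from its own start and 25 bp from that of Uch-L5 on the other strand, and the peak was absent from the list of replicate 1. The paralogs esc and escl, which encode the WD40 subunit, were not bound.

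Of the PR-DUB pair, calypso, the deubiquitinase, was bound and Asx, its partner, was not. The calypso peak had 142.4 (2R:16196733-16197016; 72.59 and 66.80 in replicates 1 and 2), 542 bp upstream of the gene inside CG44242 and 167 bp from the shared start of Lipt1 and CG42837. The other series-wide list alone had a peak in the 5′ UTR of Asx, with a signal of 56.15 and its summit 5 bp from the Asx start.

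The highest peak at any of these genes was at ash1, which encodes a histone methyltransferase of the trithorax group. It had a signal of 1719, rank 2 of 3250, with 888.2 and 835.1 in replicates 1 and 2, rank 2 in both (3L:19590485-19590763). The summit lay 153 bp beyond the 3′ end of ash1 and 96 bp from the start of CG14100, which lies downstream of ash1 on the same strand. No summit lay inside ash1.

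trx, the founding histone methyltransferase of the group, had 2 low summits in the main list. One, with 50.62, lay in an intron (3R:14278019-14278302) and the other, with 66.28, lay 1922 bp upstream and 246 bp from the start of red (3R:14288683-14288966). Neither was in the thresholded list of replicate 1 or 2. The ranked lists held a much higher peak in a trx intron that no thresholded list contains. It had 241.9 in replicate 1 (3R:14283812-14283969, rank 89) and 208.3 in replicate 2 (3R:14283825-14283949, rank 90), with an IDR score of 1000 in both. ash2, a subunit of histone H3 methyltransferase complexes, was not bound.

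Of the Brahma complex genes, which encode subunits of the SWI/SNF remodeller, brm and osa were bound and mor and Snr1 were not. brm, the ATPase, had a peak of 544.0 (3L:15982901-15983115; 317.7 and 223.3 in replicates 1 and 2) between divergent starts, 136 bp from its own and 130 bp from that of Arl1. A lower peak of 73.31 lay in a coding exon of brm (3L:15982216-15982499). osa, the ARID subunit, had 2 peaks deep inside the gene. The higher, 597.6 (3R:17704310-17704514; 281.1 and 322.9), lay in an intron 13939 bp from the nearest start of any gene, the other, 255.7 (3R:17700460-17700743; 145.7 and 103.0), a few kb further along. The start nearest to the lower osa peak was that of CG31249, 13531 bp away, against 17748 bp to the nearest osa start. mor, a scaffold subunit, had in replicate 1 alone a listed peak of 36.33 in a coding exon (3R:15968709-15968988). A peak 1526 bp upstream of it, with 94.10 in replicate 1 and 65.71 in replicate 2, was in the ranked lists only.

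Trl, the gene of the DNA-binding GAGA factor, had 3 summits inside it. The highest was intronic, with 688.9, rank 33 (3L:14759381-14759642; 397.1 and 284.8 in replicates 1 and 2), 1540 bp from a start that Trl and CG42507 are equally near to. The second, 214.0, lay in a 5′ UTR 129 bp from a Trl start (3L:14757142-14757245; 115.4 and 96.50). The third, 62.96, was intronic and in the list of replicate 1 only. The highest of these exceeded the other 2 in both replicates.

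The remaining trithorax group genes encode a remodeller, Mediator subunits, a bromodomain protein and a demethylase. kis, a chromodomain remodeller, had an intronic peak of 269.1 (2L:223476-223613; 144.5 and 120.0), 1589 bp from its nearest start. skd, a subunit of the Mediator kinase module, had 103.0 between its start and that of Pdss2 (3L:21027742-21028025; 44.52 and 50.20) and 89.41 in an intron (3L:21009621-21009904; 48.38 and 37.32). The higher skd summit lay 31 bp from the Pdss2 start and 450 bp from that of skd. kto, the gene of the partner subunit of skd, was not bound, the nearest summit lying 2266 bp away, just outside the limit. fs(1)h, a BET bromodomain gene on X, had 85.58 in an intron (X:8057425-8057708; 43.89 and 45.00). Utx, a histone H3 demethylase, had no peak in either ranked list.

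**Figure D3:**
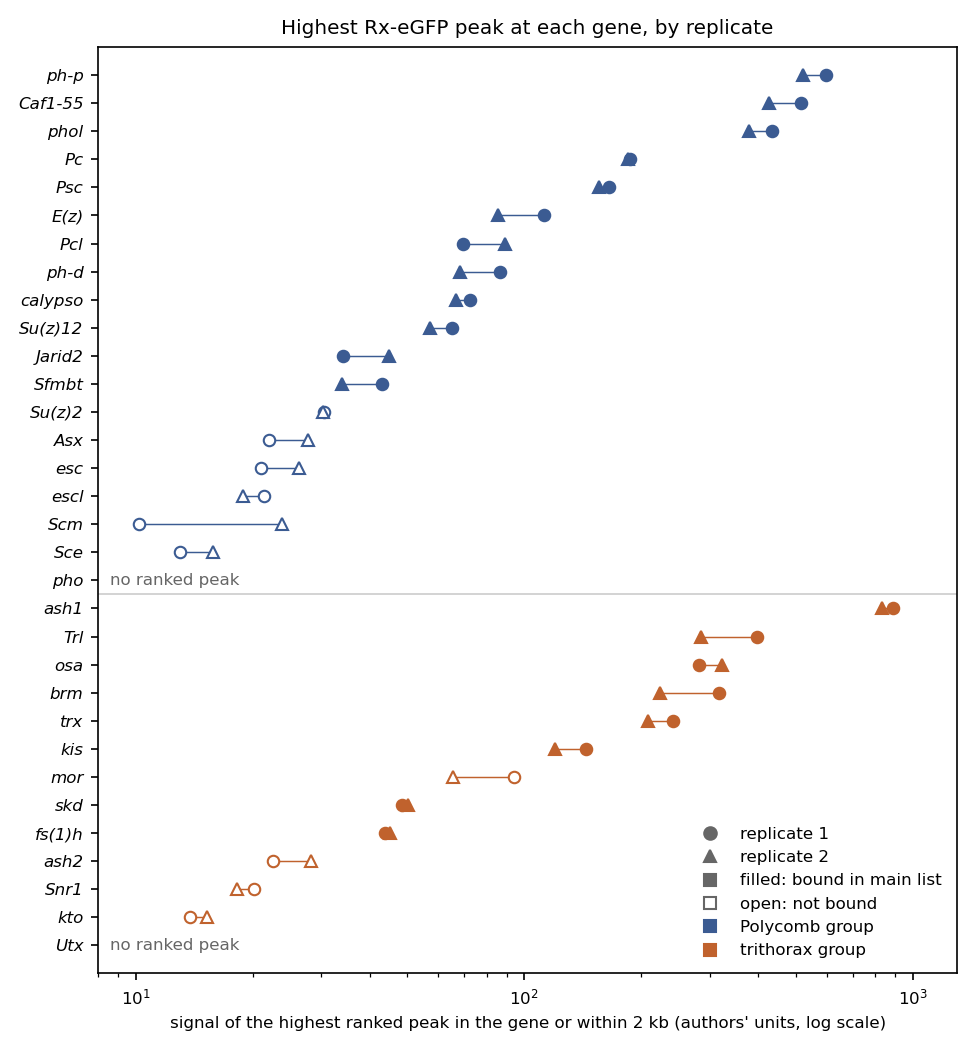
Signal of the highest ranked peak with its summit in each gene or within 2 kb, in replicate 1 (circles) and replicate 2 (triangles), on a log axis. Filled symbols are genes bound in the main list, and ash1 is highest at 888.2 and 835.1, while trx stands among the high genes through a ranked peak that the thresholded lists lack.

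At genes that were not bound the ranked lists gave low values. The highest ranked peak of the 12 unbound genes had a median of 20.5 in replicate 1 and 21.3 in replicate 2, counting as 0 pho and Utx, which had none. The medians over all 10269 unbound genes were 17.2 and 19.4. For the 20 bound members the medians were 155 and 138, and over all 3699 bound genes 57.6 and 52.5. The unbound member with the highest value was mor, at 94.10 and 65.71, and after it Su(z)2, at 30.48 and 30.33. The lowest values among bound members were 34.1 and 33.9, at Jarid2 in replicate 1 and Sfmbt in replicate 2. These values describe genes already sorted by peaks of the same libraries. trx has its place among the bound members through the ranked peak of 241.9 and 208.3, which did not make it bound. At the main-list summits that did, its values were 28.02 and 28.21 in replicate 1, below those of mor and Su(z)2. In replicate 2 they were 27.56 and 32.86, below that of mor, and the latter was above that of Su(z)2.

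The replicates gave similar heights at these summits. The main list keeps peaks that rank consistently between these same replicates, so the agreement here is partly fixed by that selection. The summit at 2124240 had no overlapping peak in replicate 1 and therefore no ratio. At the 30 member summits with a value in both, the ratio of replicate 1 to replicate 2 ran from 0.654, at the 5′ UTR peak of ph-d, to 1.46, at an intronic peak of ph-p, with a median of 1.11. Over all arm peaks the median ratio was 1.07, with a 5th percentile of 0.627 and a 95th percentile of 1.83. Peaks of both replicates' own lists overlapped 22 of the 31 member summits, and 50.6% of all arm peaks. The list of replicate 1 alone had 4 further ones and that of replicate 2 alone 3, one of which is the overlap at 2124240 described above. The 2 summits in neither list were those of trx.

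Signals at these genes stood in the upper part of the main list. The median over the 31 summits was 148.2, against 90.10 for all arm peaks. The upper quartile of all arm peaks was 145.8, and 16 member summits reached it, while 11 lay below the median of all. Over the 20 bound members the highest signal per gene had a median of 234.3, against 109.6 for all bound genes and 117.6 for bound genes in the longest class. It was 180.6 for the 12 Polycomb and 406.5 for the 8 trithorax group genes, a difference that was not tested. The Polycomb range of 77.74 to 1116 lay within the trithorax range of 66.28 to 1719. Of the 31 summits, 20 were nearest to a member's own start and 11 to the start of another gene. Among the latter were those of 1719 at ash1, 935.8 at Caf1-55, 813.8 at phol, 544.0 at brm and 377.5 at Pc. The medians therefore include peaks at neighbours' starts, and none was calculated for summits nearest to the member's own start alone. More than 1 summit was found at 7 of 20 bound members, at 25.0% of all bound genes and at 40.1% of bound genes in the longest class.

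**Figure D4:**
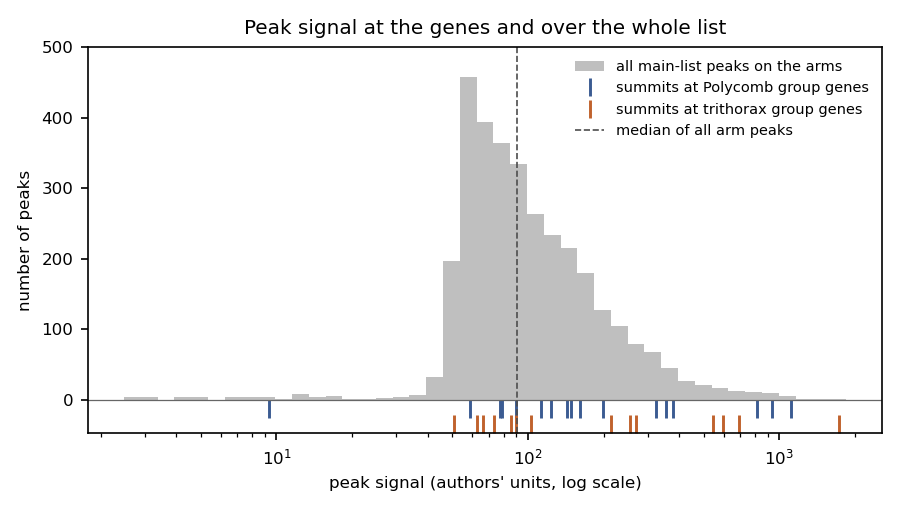
Histogram of the signal of all 3250 main-list peaks on the arms (log axis), with the 31 member summits as ticks below it, in blue for Polycomb and orange for trithorax group genes. The dashed line is the median of all arm peaks, 90.10, and 11 member summits lie below it.

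In 201-base windows centred on the summits, the 7 motifs were counted at the members and over the whole list, and no difference was tested. The homeodomain core TAATTA was in 3 of 31 member windows, against 15.4% of all 3250. These were the higher brm peak, the ph-p intronic peak at 2134464 and the low summit between ph-p and ph-d. The GAGA word was in 7, against 24.2%, and the Pho core in 7, against 27.7%. CGATA was in 6, against 27.2%, and ACAGTG in 7, against 22.0%. The Dref element was in 1, at Sfmbt, against 2.68%, and the M1BP word in none, against 1.69%. Neither of the highest 2 member summits, at ash1 and ph-p, held the homeodomain core. The median GC content was 37.3% in member windows and 36.3% in all. At the Trl gene, whose product binds GAGAG, that word was found at the intronic summit of 62.96 and not at the higher ones.

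Other genes of the same systems were counted by the same rule, and their lengths differ from those of the members. By that rule 26.5% of all protein-coding genes were bound, and 41.8% of those of 5000 bp or more. Of 14 other Polycomb-linked factors 5 were bound, with the highest peaks at grh (215.0, in an intron) and Dsp1 (182.3, nearest to a start of CG9921), and their median length was 6980 bp. Of 7 other Brahma complex subunits 2 were bound, Bap55 (69.94, nearest to a start of Mtap) and BCL7-like (53.42), with a median length of 2668 bp over the list. Of 23 other COMPASS and trithorax-linked genes 7 were bound, with the highest peaks near wds (281.7, nearest to a start of egh), a WD40 subunit of histone methyltransferase complexes, and nej (206.8), the CBP acetyltransferase, and a median length of 7286 bp. Among 15 heterochromatin and other remodeller genes 8 were bound, with 699.4 at Su(var)2-10 and 646.0 at the gene that encodes HP1a, both nearest to starts of neighbours, GstE13 and CG8360 respectively, and a median length of 5819 bp. Genes that Polycomb proteins classically silence gave 7 of 26, against 26.5% of all genes, with hth (162.4) and Antp (138.6) highest, both in introns. Their median length was 14461 bp, and in the class of 5000 bp or more 41.8% of all genes were bound. In the lists of replicates 1 and 2 the counts were 2 and 4 for the Polycomb-linked factors and 0 and 1 for the Brahma subunits. They were 6 and 7 for the COMPASS and trithorax-linked genes and 7 and 6 for the heterochromatin and remodeller genes. For the classical Polycomb targets they were 4 and 5. Over all genes 21.3% and 20.0% were bound in these lists. The differences between these lists and the members were not tested.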

How the data were processed

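Chromatin immunoprecipitation with sequencing of Rx-eGFP was deposited for 2 biological replicates of whole embryos as peak lists on dm6, per the labels. The signal of each peak and its whole-number IDR score are the authors' deposited values, and the lowest score in the thresholded lists was 830. Per the deposited file inventories, thresholded and ranked lists came from the alignments and a control. The sources used here name no aligner or peak caller. The depth of each sample is unknown.

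From these lists, with Python 3.11.15, pandas 2.3.3 and numpy 2.4.6, summits were placed on Ensembl release 115 protein-coding genes. All peak ends of the thresholded lists lay within the arm lengths of the Release 6 genome, so its sequence was used. Positions are 1-based. Peaks on unplaced scaffolds were left out. A replicate's value at a summit is the highest peak of its ranked list that overlaps the main-list peak. Every bound member is described. Other genes named are those with the start nearest to a member's summit, and, for each other list, at most 2 bound genes, those whose peaks were highest. Sequence is printed for the 7 member summits among the 100 highest peaks. Gene lists, motifs, members and tests were chosen with earlier results of these data known. No test was run: there is 1 group, and peaks are not replicates. The gene calls were checked on simulated summits. Alternatives were other lists, flanks, promoter sizes, windows and the nearest start.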

Additional observations from a re-analysis of the deposited data

Results flagged for a closer look

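Peaks outside the thresholded lists stood at trx and mor in both replicates' ranked lists, with IDR scores that the thresholded lists accept. In all, 59 such peaks on the arms were missing from the thresholded list of replicate 1 and 68 from that of replicate 2, and among the 32 genes they were found at these 2. The trx intronic peak had 241.9 in replicate 1 and 208.3 in replicate 2, 3015 and 3031 bp from the nearest trx start, and a second one in replicate 2 had 36.05 (3R:14284466-14284721). The peak upstream of mor had 94.10 in replicate 1 (3R:15974299-15974578) and 65.71 in replicate 2 (3R:15974353-15974608), and a start of Hel89B was nearest to both. Why these peaks are missing from the thresholded lists was not tested. No control sample was analysed here to set them against.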

How the results depend on the processing

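No paired analysis was possible because there is 1 group. The number of members bound, 20 in the main list, was 20 in the other series-wide list (27.3% of all genes), 18 to 19 when 1 replicate was left out, 16 with the 50% of peaks with the highest signal (16.2% of all genes), 22 with a flank of 5 kb (37.5% of all genes, against 26.5%) and 20 with any base of the peak (27.0%). It was 20 with the ranked peaks of a listed score added to the list of replicate 1 or of replicate 2. That alternative was chosen after seeing the data, and its share of all genes is not given here. With a summit inside the gene the number of members bound was 12 of 32 (9.40% of all genes), with 5 Polycomb group genes. With the nearest start alone it was 13 (17.0% of all genes), with 6 Polycomb group genes. Over all genes the count of 3699 fell to 1313 with a summit inside the gene, to 2373 with the nearest start and to 2257 with the highest 50%. The 32 pairs of a member and a summit fell to 18, 21 and 20 under the same 3 settings. Summits within 500 bp of the own start, 11, were 7 with 200 bp, 16 with 1000 bp and 7 with the highest 50%. The matching values over all genes are not given here. Members bound in both replicates' lists, 17 (against 16.7% of all genes), were 9 with a summit inside the gene and 19 with 5 kb. The shares of all genes in both lists under the latter settings are not given here. Leaving out replicate 2 lost Jarid2 and trx and gained mor, and leaving out replicate 1 lost Sfmbt and trx. With windows of 50 bp either side GAGAG was in 2 of 31 member windows (9.63% of all windows), GCCAT in 3 (14.9%) and ACAGTG in 2 (8.12%). The median highest signal per bound member, 234.3 in the main list, was 144.5 in replicate 1's list and 137.6 in replicate 2's, each on its own scale. Depth is unknown, so a gene without a peak is not shown to lack binding.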
